A study of Mus musculus with 9 samples.

Results

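Complement is a protein cascade of innate immunity, and 9 of its genes were followed here: the C1q chain genes C1qa, C1qb and C1qc, the C1 protease genes C1ra and C1s1, C4b, C3, the inhibitor gene Serping1 and the receptor gene C3ar1. They were chosen by symbol, each matched to 1 mouse Ensembl ID, and make up 9 of the 53465 gene IDs counted. RNA was sequenced from the hearts of NOD-SCID mice in 9 libraries, 3 per group, and the labels give the infarct border zone, the muscle next to the dead tissue, as the region sampled in every group. The sham group had surgery without ligation, the ligation group had a coronary artery tied, and the cell group had the artery tied and was implanted with cells named FOXO3-GE-MPCs. The study's cells are human mesenchymal progenitors with an engineered FOXO3 gene, which the labels do not spell out. Cell replicates 2 and 3 carry FOXO4 and FOXO5 in 1 label field and FOXO3 in their title and treatment, and the title was followed. Age, time after surgery and cell dose are not given in the sources used here.

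NOD-SCID mice lack functional B and T lymphocytes, and the NOD strain carries a defective gene for complement component C5, so the host cannot build the normal terminal complex. These features are shared by all groups. The ligation and cell groups differ in the implanted cells, and no group analysed here received other cells or vehicle alone, so the implanted cells, the injection and the engineered gene cannot be told apart. The labels do not say that libraries of a group came from separate animals, and p-values then measure the spread between these libraries only, which may be technical. The file headers of sham replicates 1 and 2 share a name stem, as do those of ligation replicates 2 and 3, so these pairs may come from 1 animal each. Their counts differed by more than sampling noise, which does not show whether a pair came from 1 animal or from separate ones. With each pair summed into 1 library the calls of all 9 genes were the same.

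C1q is the recognition molecule of the classical pathway and binds antibody, dying cells and debris. It carries the proteases C1r and C1s, which cleave C4 and C2 and so set up the enzyme that cleaves C3. Serping1 encodes C1 inhibitor, which removes C1r and C1s from C1q, and C3ar1 encodes the receptor for the C3a fragment released from C3. In tissues, C1q is made mainly by macrophages, while fibroblasts and other stromal cells make much of the local C1r, C1s, C3, C4 and C1 inhibitor.

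All 9 genes were higher after ligation than in sham hearts, and with implanted cells they divided. C1qa, C1qb, C1qc and C3ar1 fell below the sham level. C1ra, C1s1, C3, C4b and Serping1 remained above it, with C3, C4b and Serping1 modestly lower than after ligation alone and C1ra and C1s1 not past the threshold. This division was drawn after the values were seen.

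The start regions of 4 of these genes are shown because they stand for the genes on each side of that division: C1qb, C1qc and C3ar1 on one side and C3 on the other. Sequences and start sites are from a set of RefSeq starts on build GRCm38.p6. The set used here held 6 of the 9 genes and lacked C1qa, C4b and Serping1. Each run lies upstream of the start, 5′ to 3′ on the gene's own strand, and was shortened where an annotated exon began. Capitals mark a match to one of the motifs searched. C1qb is chr4:136886201-136886450, C1qc chr4:136893066-136893164, C3ar1 chr6:122856162-122856407 and C3 chr17:57228137-57228386, all on the minus strand.
C1qb: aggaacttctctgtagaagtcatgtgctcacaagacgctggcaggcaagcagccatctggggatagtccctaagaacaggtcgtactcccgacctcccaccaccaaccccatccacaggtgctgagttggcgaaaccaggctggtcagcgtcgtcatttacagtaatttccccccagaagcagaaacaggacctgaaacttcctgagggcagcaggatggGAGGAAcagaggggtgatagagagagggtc
C1qc: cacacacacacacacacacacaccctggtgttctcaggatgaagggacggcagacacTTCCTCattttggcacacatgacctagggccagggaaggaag
C3ar1: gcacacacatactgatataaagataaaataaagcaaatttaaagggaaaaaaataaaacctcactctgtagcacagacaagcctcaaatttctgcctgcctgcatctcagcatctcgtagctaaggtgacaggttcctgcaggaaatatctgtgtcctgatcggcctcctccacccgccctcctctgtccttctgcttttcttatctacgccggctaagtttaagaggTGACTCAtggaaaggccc
C3: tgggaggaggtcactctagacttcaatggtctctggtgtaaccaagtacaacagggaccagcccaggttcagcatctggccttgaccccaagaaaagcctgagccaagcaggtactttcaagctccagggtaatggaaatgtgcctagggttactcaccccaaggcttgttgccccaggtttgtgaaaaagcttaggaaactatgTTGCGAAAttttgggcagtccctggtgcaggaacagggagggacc

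Motifs were searched on both strands of the 250 bases upstream of each start. GAGGAA, a core bound by the myeloid factor PU.1, lay 30 bases before the C1qb start and, as TTCCTC on the other strand, 193 bases before the C1qc start, and 23.3% of all 32851 windows of the same length held it. TTGCNNAA, a form of the C/EBP site, lay 45 bases before the C3 start and, on the other strand, 242 bases before the C1s1 start, against 9.56% of all windows. TGANTCA, the AP-1 site, lay 22 bases before the C3ar1 start, against 6.75%. TTCNNNGAA, the STAT site, matched no window of these genes and 7.02% of all windows. No marked match overlaps another, the C1ra window held no match, and a match is a string of letters, not a bound site.

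Levels are CPM, the gene's share of all gene counts of its library on a fixed scale, adjusted by TMM factors that make libraries comparable. C1qa, encoding the A chain, lies on chromosome 4 from 136895917 to 136898803. It was at 151, 155 and 133 CPM in sham replicates 1, 2 and 3, at 219.8, 213 and 223 CPM after ligation, and at 92.4, 96.2 and 88.7 CPM with implanted cells. Every ligation library was above every sham library, and every cell library was below all 6 others. The log2 fold change after ligation was 0.58 (SE 0.0613; edgeR quasi-likelihood test, Benjamini-Hochberg adjusted p = 1.86e-07). With cells it was -1.24 against ligation (SE 0.0627; edgeR, adjusted p = 1.49e-11), a 2.37-fold lower level, and -0.66 against sham (SE 0.0636; edgeR, adjusted p = 4.54e-08).

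C1qb and C1qc, the B and C chain genes, lie beside C1qa on the minus strand of chromosome 4, from 136880129 to 136886187 and from 136889804 to 136893065. C1qb was at 102, 106 and 98.3 CPM in sham hearts, at 138, 139 and 145 CPM after ligation and at 51.8, 50.4 and 57.6 CPM with cells. C1qc was at 109, 105 and 105 CPM, at 140.1, 139 and 142 CPM and at 57.7, 54.9 and 58.1 CPM in the same order. Both genes were highest in the ligation libraries and lowest in the cell libraries, with no overlap between groups. After ligation C1qb rose by 0.47 on the log2 scale (SE 0.063; edgeR, adjusted p = 4.94e-06) and C1qc by 0.40 (SE 0.0571; edgeR, adjusted p = 1.03e-05), the smallest rises of the 9 genes. Against ligation, C1qb fell by 1.40 with cells (SE 0.0658; edgeR, adjusted p = 3.9e-12) and C1qc fell by 1.30 (SE 0.0594; edgeR, adjusted p = 2.75e-12). Against sham, they fell by 0.94 (SE 0.0671; edgeR, adjusted p = 5.2e-10) and 0.90 (SE 0.0604; edgeR, adjusted p = 1.84e-10).

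C1q is assembled from equal numbers of its A, B and C chains. Divided by the length of its merged exons, C1qa gave 48.5% ± 1.43 of the summed chain RNA in sham hearts, 51.0% ± 0.461 after ligation and 53.1% ± 2.33 with cells (SD, n = 3). C1qb gave 32.4% ± 0.75, 31.4% ± 0.448 and 29.3% ± 1.97, and C1qc 19.1% ± 0.933, 17.6% ± 0.176 and 17.6% ± 0.526. The order of the chains per length was the same in every library, and differences in their shares between groups were not tested. The place of C1qb above C1qc rests on the lengths used, 1088 and 1931 bases, which may not be those of the expressed transcripts. Before this division C1qb and C1qc were at 101.9 and 106.5 CPM on average in sham hearts, 140.8 and 140.4 CPM after ligation and 53.3 and 56.9 CPM with cells.

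C1ra encodes C1r, which activates C1s, and lies on the plus strand of chromosome 6 from 124512405 to 124523443. It was at 29.5, 33.0 and 27.6 CPM in sham hearts, at 63.3, 60.8 and 61.2 CPM after ligation and at 53.8, 58.4 and 63.0 CPM with cells. Sham libraries were low, and the ligation and cell libraries overlapped. C1ra rose by 1.04 after ligation (SE 0.0855; edgeR, adjusted p = 4.83e-09), and was 0.96 higher with cells than in sham hearts (SE 0.0852; edgeR, adjusted p = 1.35e-08). With cells against ligation the log2 difference was -0.08, with a 95% interval from -0.24 to 0.08 (edgeR, adjusted p = 0.601).

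C1s1 encodes C1s, the protease that cleaves C4 and C2, and lies on the minus strand of chromosome 6 from 124530345 to 124542359. It was at 34.1, 31.9 and 34.8 CPM in sham hearts, at 73.1, 74.6 and 70.9 CPM after ligation and at 74.0, 69.9 and 69.7 CPM with cells. Its sham libraries again stood apart, and the other 6 libraries overlapped. The log2 rise was 1.12 after ligation (SE 0.0717; edgeR, adjusted p = 1.13e-10) and 1.08 for cells against sham (SE 0.0712; edgeR, adjusted p = 1.44e-10). Cells and ligation differed by -0.03, with a 95% interval from -0.17 to 0.10 (edgeR, adjusted p = 0.815). C1ra and C1s1 share sequence with copies, so part of their counts is uncertain: 59.6% of the 31-base words of C1ra occur in other genes, mainly C1rb, and 47.6% of those of C1s1, mainly C1s2. The copies were rarer, with C1rb at 2.91, 4.94 and 5.97 CPM and C1s2 at 0.957, 5.94 and 5.98 CPM on average in sham, ligation and cell libraries.

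C4b encodes C4, whose larger fragment attaches to surfaces and helps to form the C3-cleaving enzyme, and lies on chromosome 17 from 34728380 to 34743882. It was at 93.7, 89.9 and 109 CPM in sham hearts, at 299.9, 299.8 and 335 CPM after ligation and at 234, 238 and 245 CPM with cells. The groups did not overlap, and the cell libraries lay between the others. The rise of 1.68 after ligation, 3.20-fold, was the largest of the 9 genes (SE 0.0671; edgeR, adjusted p = 6.93e-14). With cells C4b fell by 0.38 against ligation (SE 0.063; edgeR, adjusted p = 0.000289) and was 1.29 above sham (SE 0.067; edgeR, adjusted p = 3.55e-12). Of its 31-base words, 48.3% also occur in C4a, which was at 1.72, 1.74 and 1.46 CPM on average in the sham, ligation and cell groups.

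C3, the component on which all the pathways converge, lies on chromosome 17 from 57203970 to 57228136. It was at 282, 276 and 265 CPM in sham hearts, at 692, 729 and 761 CPM after ligation and at 627, 614 and 649 CPM with cells. Sham libraries were lowest and ligation libraries highest, with the cell libraries below the ligation range. C3 rose by 1.41 after ligation, 2.65-fold (SE 0.0471; edgeR, adjusted p = 3.46e-15). With cells it fell by 0.21 against ligation, a 1.15-fold difference and the smallest one past the threshold among the 9 genes (SE 0.0456; edgeR, adjusted p = 0.00444), and was 1.20 above sham (SE 0.047; edgeR, adjusted p = 4.05e-14).

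Serping1, on chromosome 2 from 84765387 to 84775444, encodes C1 inhibitor, the brake on C1r and C1s. It was at 233, 249 and 249 CPM in sham hearts, at 389, 366 and 393 CPM after ligation and at 308, 309 and 318 CPM with cells. The cell libraries lay between the sham and ligation libraries without overlap. Serping1 rose by 0.65 after ligation (SE 0.0489; edgeR, adjusted p = 1.14e-09), fell by 0.30 with cells against ligation (SE 0.0482; edgeR, adjusted p = 0.000251) and was 0.35 above sham with cells (SE 0.0489; edgeR, adjusted p = 6.37e-06).

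C3ar1, the gene of the C3a receptor, lies on chromosome 6 from 122847138 to 122856161 and was the rarest of the 9, with 57 to 219 counts per library. It was at 15.6, 10.2 and 13.0 CPM in sham hearts, at 26.4, 24.8 and 27.3 CPM after ligation and at 8.07, 8.30 and 8.62 CPM with cells. The ligation libraries were the highest and the cell libraries the lowest, although the lowest sham library, at 10.2 CPM, stood close to the highest cell library, at 8.62 CPM. C3ar1 rose by 1.02 after ligation (SE 0.139; edgeR, adjusted p = 5.77e-06). It fell by 1.65 with cells against ligation, the largest drop of the 9 genes (SE 0.145; edgeR, adjusted p = 9.78e-08), and fell by 0.63 against sham (SE 0.161; edgeR, adjusted p = 0.00355).

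**Figure D1:**
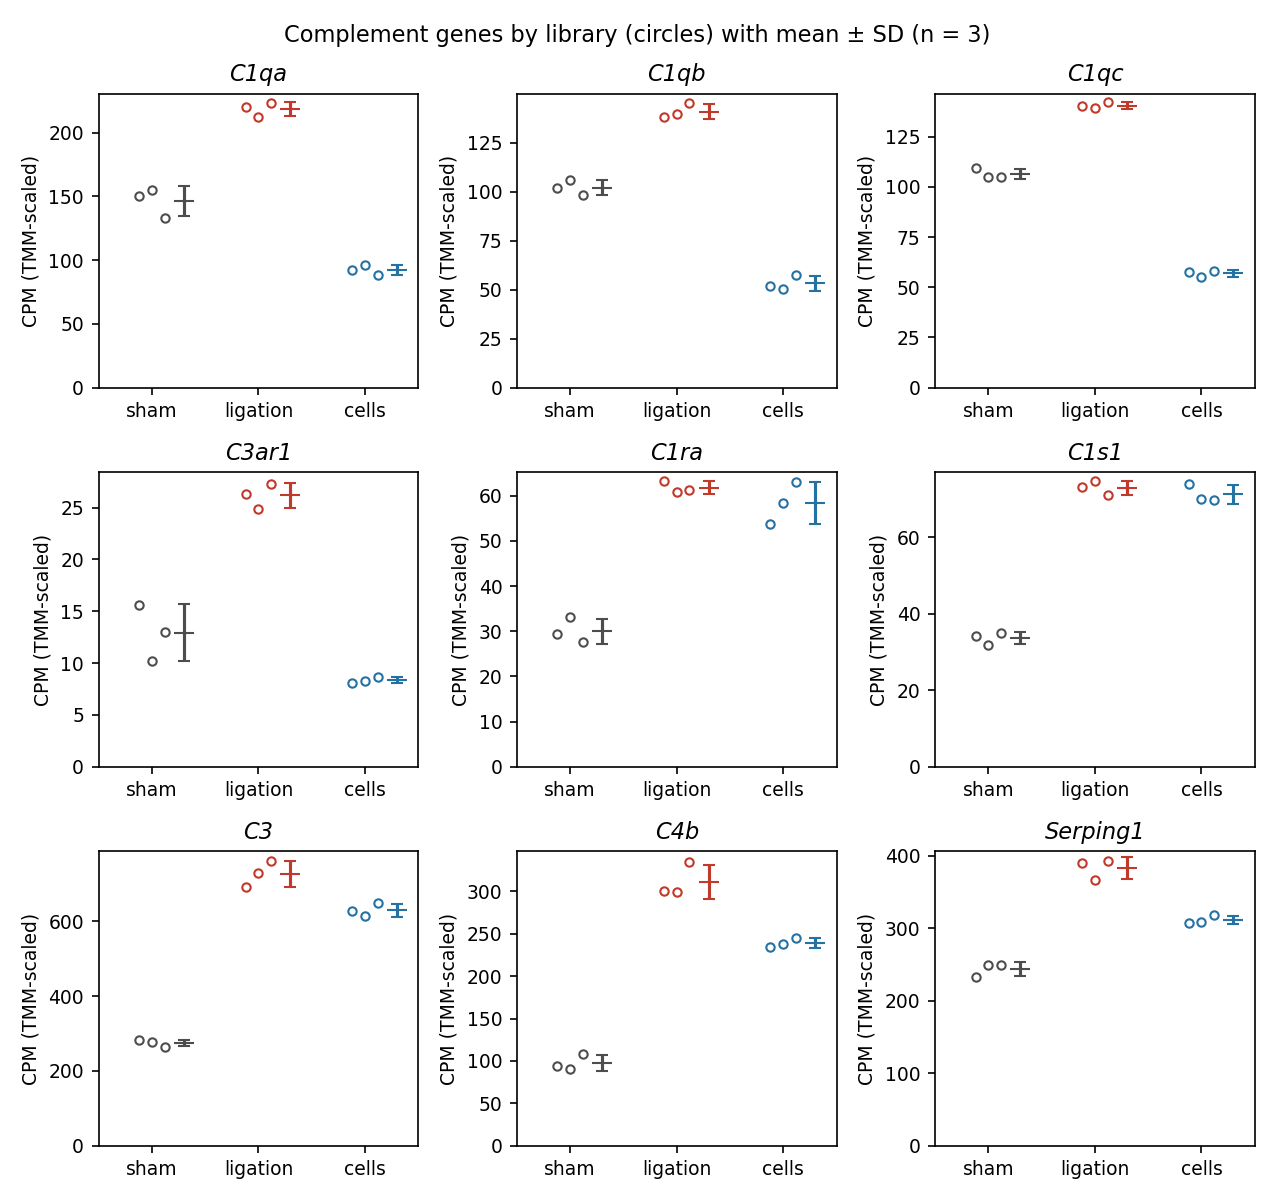
Level of each gene in TMM-scaled CPM (y axes, from 0) in the 3 sham, 3 ligation and 3 cell libraries; circles are libraries and the bar beside them is the mean ± SD. The 3 C1q chains and C3ar1 are lowest in the cell libraries, and the other 5 genes are lowest in the sham libraries.

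Counted together, 9 of 9 genes were higher after ligation than in sham hearts, where 20.1% of the 13825 genes tested were called higher (edgeR, adjusted p under 0.05). The ranges of ligation and sham libraries did not overlap for any of the 9, with ligation above, as for 25.0% of all genes. Their median log2 fold change was 1.02, beside 0.00804 over all genes. With cells against ligation, 7 of 9 were lower and 2 were not past the threshold, against 5.69% of all genes called lower, and the same 7 had ranges that did not overlap, against 14.0% of all genes. Their median was -0.38, beside 0.00195 over all genes. With cells against sham, 5 were higher and 4 lower, against 21.0% and 20.0% of all genes. The ranges did not overlap for any of these 9 genes, as for 25.4% of all genes with cells above and 24.4% with cells below. The comparisons share libraries, so they are not independent of each other.

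**Figure D2:**
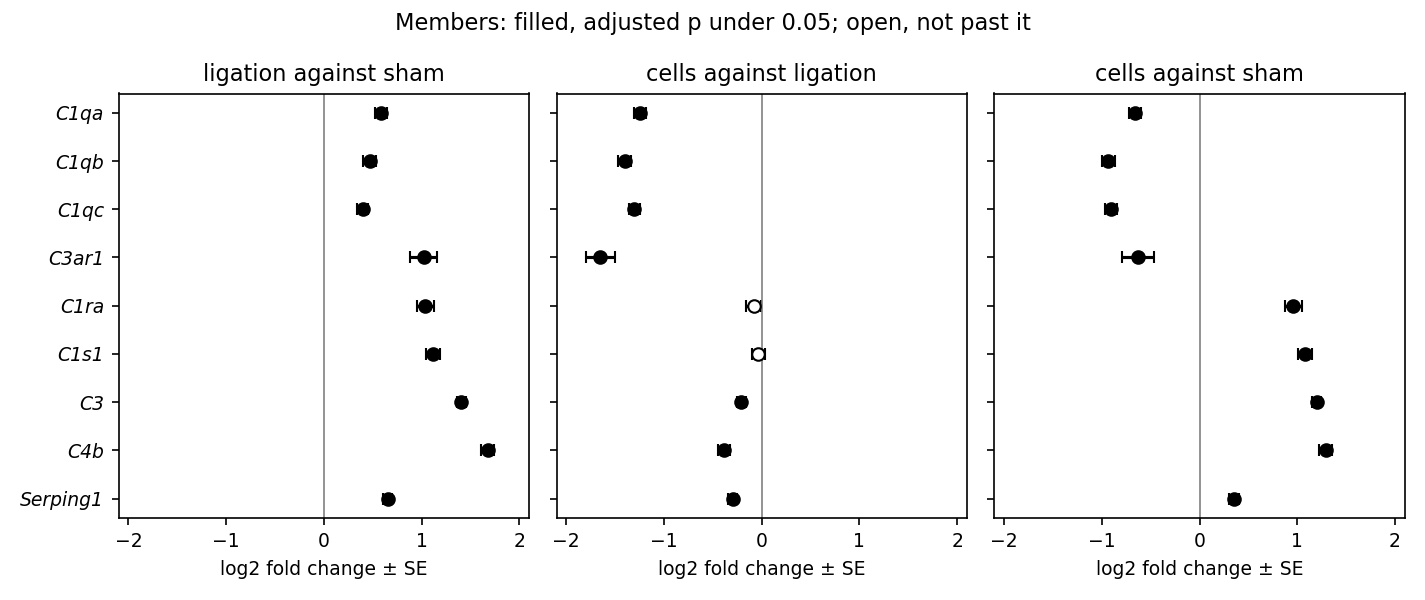
Log2 fold change ± SE of each gene (x axes) in each of the 3 comparisons; filled points passed the adjusted p threshold and open points did not. Against ligation the C1q chains and C3ar1 lie between -1.24 and -1.65, C3, C4b and Serping1 between -0.21 and -0.38, and C1ra and C1s1 near 0.

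Set beside each other per kilobase of exon, the members had a different order in each group. In sham hearts C1qa was the most abundant at 141 ± 11.2 CPM per kb, followed by Serping1 at 105 ± 4.03, C1qb at 93.7 ± 3.46, C1qc at 55.1 ± 1.30 and C3 at 53.4 ± 1.71 (SD, n = 3). C4b, C1s1, C1ra and C3ar1 followed at 17.1, 10.7, 10.1 and 3.0 CPM per kb. Part of the counts of C4b, C1s1 and C1ra is uncertain because they share sequence with copies, so their places are uncertain too. C1qc and C3, and C1s1 and C1ra, were neighbours closer than the sum of their SDs. After ligation C3 passed C1qb, at 141 ± 6.71 against 129 ± 3.57 CPM per kb. With cells Serping1 was first at 134 ± 2.36 and C3 second at 122.5 ± 3.36, while C1qa stood at 88.9 ± 3.61, C1qb at 49.0 ± 3.53 and C1qc at 29.5 ± 0.888 CPM per kb.

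Because C1q is made mainly by macrophages, a list of 10 other macrophage markers was read in the same libraries. Their summed level was 504 to 541 CPM in sham hearts, 905 to 946 CPM after ligation and 377 to 399 CPM with cells. After ligation 7 of the 10 were higher, 1 lower and 2 not past the threshold, where 20.1% of all genes were higher and 18.0% lower. With cells against ligation all 10 were lower, where 5.69% of all genes were, with a median log2 fold change of -1.29. Adgre1, the gene of the macrophage marker F4/80, was at 15.3 ± 2.02, 32.1 ± 3.72 and 9.87 ± 1.30 CPM in the sham, ligation and cell groups (SD, n = 3). Cd163, a scavenger receptor of resident macrophages, had another pattern, with 36.8 ± 1.51, 27.1 ± 1.21 and 9.77 ± 2.15 CPM. In bulk tissue, fewer cells of a type and less RNA per cell cannot be told apart.

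The log2 ratio of the summed C1q chains to the summed macrophage markers was -0.55 ± 0.06 in sham hearts, -0.90 ± 0.06 after ligation and -0.93 ± 0.05 with cells (SD, n = 3). The ratios of the ligation and cell libraries overlapped, with a difference of -0.04 (exact two-sided permutation test, p = 0.6, adjusted over 3 tests 0.6). The sham libraries lay above both, with differences from sham of -0.35 after ligation and -0.39 with cells, and each exact permutation test gave p = 0.1, the smallest p that 3 against 3 libraries allow, and an adjusted p of 0.15. Lyz2, the lysozyme gene, supplies most of the marker sum, at 281, 616 and 260.4 CPM on average in the sham, ligation and cell groups. With the mean of the log2 marker levels in place of their sum, so that each marker counts alike, the differences were -0.06 for ligation against sham, -0.04 for cells against ligation and -0.10 for cells against sham (exact permutation p = 0.4, 0.9 and 0.5).

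For the receptor, the log2 ratio of C3ar1 to the marker sum was -5.35, -5.16 and -5.54 on average in the sham, ligation and cell groups. This ratio and the next were chosen after the values were seen. Cells and ligation differed by -0.38 (exact permutation p = 0.1, adjusted over 3 tests 0.3). The summed C1q chains stood at a log2 ratio to the summed C1ra and C1s1 of 2.48 ± 0.04 in sham hearts, 1.89 ± 0.05 after ligation and 0.645 ± 0.02 with cells (SD, n = 3). No library of one group reached the range of another. The ratio of recognition chains to proteases differed by -0.59 between ligation and sham and by -1.25 between cells and ligation, each with the smallest possible exact permutation p of 0.1.

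For the 6 fibroblast markers the pattern was different. Their summed level was 1940 to 1994 CPM in sham hearts, 3178 to 3270 CPM after ligation and 3017 to 3100 CPM with cells. After ligation 4 were higher, 1 lower and 1 not past the threshold, where 20.1% of all genes were higher and 18.0% lower. With cells against ligation 1 was lower and 5 were not past it, where 5.69% of all genes were lower. Col3a1, a collagen gene, was at 469 ± 5.75, 1224 ± 30.6 and 1047 ± 16 CPM in the sham, ligation and cell groups (SD, n = 3). Pdgfra, a receptor that marks fibroblasts, was at 61.3 ± 4.23, 53.3 ± 2.61 and 53.4 ± 4.63 CPM. The part of changed cell numbers in the levels of C1ra, C1s1, C3, C4b and Serping1 was not tested.

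**Figure D3:**
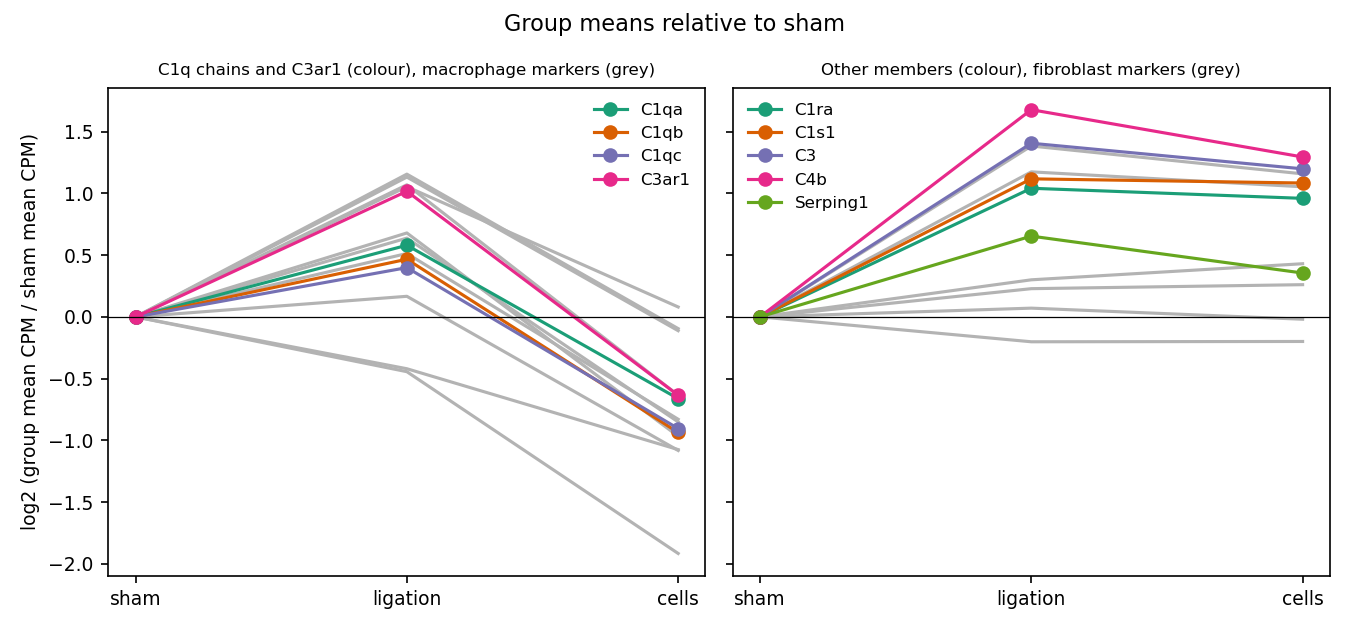
Group means of the complement genes (coloured) and of cell markers (grey) as log2 of the mean CPM over the sham mean (y axis) in sham, ligation and cell hearts; the left panel shows the C1q chains and C3ar1 with 10 macrophage markers, the right panel the other genes with 6 fibroblast markers. The panels were divided after the values were seen: the coloured lines on the left end below 0 with cells, and those on the right end above it.

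The genes whose log2 CPM tracked each member most closely were sought among 9390 genes with a mean of at least 10 CPM. These correlations run over 9 libraries that share 3 groups, so they describe mainly the group means. For the mean of the C1q chains they were Csf1r, the macrophage growth factor receptor, with Pearson r 0.991, Siglec1, a macrophage surface lectin, with r 0.99, and H2-Aa, an MHC class II chain, with r 0.989. Csf1r was at 49.9, 77.7 and 27.7 CPM on average in sham, ligation and cell libraries. For C3ar1 they were Cited2 with r 0.986, the leukocyte lysosomal gene Laptm5 with r 0.985, and Adgre1 with r 0.984. Laptm5 was at 40.0, 78.6 and 26.9 CPM.

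For the mean of C1ra and C1s1 the closest genes were Adipoq, the fat cell hormone adiponectin, with r 0.999, Thsd7a with r 0.999 and Col5a2, a fibrillar collagen gene, with r 0.998. For C3 they were Upk3b, a mesothelial surface gene, with r 0.998, and Col3a1 with r 0.998. For C4b they were Map4, Glul and Col3a1, with r 0.995, 0.994 and 0.994. For Serping1 they were Msn, Serpina3n and Dap, with r 0.995, 0.995 and 0.994, and Serpina3n, an acute phase protease inhibitor, was at 64.6, 188 and 111 CPM on average in sham, ligation and cell libraries.

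Among the members themselves, the C1q chains correlated with each other at r 0.974 to 0.996 over the 9 libraries and with C3ar1 at 0.914 to 0.947. C1ra, C1s1, C3, C4b and Serping1 correlated among themselves at 0.884 to 0.988. Between the C1q chains and C1ra, C1s1, C3 or C4b, r was -0.19 to 0.169. Serping1 lay closer to the other side, at 0.246 to 0.413 with the C1q chains and 0.55 with C3ar1, and C3ar1 correlated with C1ra, C1s1, C3 and C4b at 0.175 to 0.355.

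Upk3b and Adipoq belong to cell types outside the lists fixed for the heart, so mesothelial and adipocyte genes were read as lists added after the values were seen. The 6 mesothelial genes, which mark the lining of the heart and chest, summed to 32.9 to 44.2 CPM in sham hearts, 227 to 269 CPM after ligation and 187 to 190.0 CPM with cells. Since Upk3b, which prompted the list, is in this sum, the other genes are given too. Msln, the gene of mesothelin, was at 5.34 ± 0.678, 36.7 ± 1.23 and 34.5 ± 1.5 CPM and Krt19, a keratin gene, at 2.58 ± 0.649, 21.2 ± 1.36 and 12.3 ± 0.393 CPM in the sham, ligation and cell groups (SD, n = 3). Lrrn4 was at 1.98, 31.6 and 23.0 CPM and Upk1b at 1.06, 17.4 and 16.1 CPM on average, while Wt1, a transcription factor of the epicardium, was at 15.2, 21.2 and 26.0 CPM and thus highest with cells. Upk3b was at 12.7 ± 1.75, 117 ± 16.1 and 76.4 ± 4.54 CPM in the sham, ligation and cell groups (SD, n = 3). The adipocyte genes did not move alike: Adipoq, which prompted the list, was at 1.44 ± 0.189, 21.7 ± 1.11 and 17.9 ± 1.21 CPM, Cidec, a lipid droplet gene, at 2.76 ± 1.34, 21.0 ± 1.73 and 20.4 ± 2.31 CPM, and Fabp4, which endothelial cells also express, at 1550 ± 99.97, 978 ± 44.8 and 1070 ± 72.5 CPM. Plin1 was at 1.09, 14.4 and 15.7 CPM, Retn at 1.58, 11.4 and 11.8 CPM and Lep, below 3 counts in every sham library, at 0.226, 2.22 and 3.29 CPM on average. The sum of the 6, most of it Fabp4, was 1440 to 1627 CPM in sham hearts, 1005 to 1085 CPM after ligation and 1082 to 1227 CPM with cells. The part of adherent or fatty tissue in the members' changes was not tested.

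Other complement genes were read from a list of 48, of which 32 had enough counts to be tested. Of the other 16, 6 had no count in any library, and the highest level of the remaining 10 was 1.78 CPM. Among the 32, 19 were higher, 5 lower and 8 not past the threshold after ligation, where 20.1% of all genes were higher and 18.0% lower. With cells against ligation, 2 were higher, 7 lower and 23 not past it, where 4.19% of all genes were higher and 5.69% lower. With cells against sham, 11 were higher and 8 lower, where 21.0% of all genes were higher and 20.0% lower. Median log2 fold changes were 0.71, -0.22 and -0.09 in that order. With library totals in place of TMM scaling, 3 were lower after ligation and 5 with cells against sham. Genes such as Cfi, C1s2, C2, C6, Itgax and Csmd1 were counted mainly outside sham hearts and passed the filter through those groups, so these numbers are a description. C6, Itgax and Csmd1 are named only for their few sham counts.

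In the classical and lectin pathways, 6 of 9 tested genes were higher after ligation and none lower, where 20.1% of all genes were higher and 18.0% lower. Masp1, a lectin pathway protease, rose from 9.44 ± 1.53 to 33.6 ± 3.40 CPM (SD, n = 3; log2 fold change 1.82; edgeR, adjusted p = 4.71e-10) and was at 36.6 ± 1.94 CPM with cells. C1s2, the C1s copy, had 17, 112 and 127 counts in all in the sham, ligation and cell groups. C2, which is cleaved by C1s, had 17, 86 and 82 counts, although 46.9% of its exon bases lie under the overlapping genes Gm20547 and Zbtb12. C1rb missed the threshold after ligation (0.71; edgeR, adjusted p = 0.0764), as did C4a (0.01; edgeR, adjusted p = 0.986). C1rb passed it with library totals (edgeR, adjusted p = 0.0207), without sham replicate 3 (0.0169) and without ligation replicate 3 (0.043). Fcna, the macrophage lectin ficolin A, rose by 1.12 after ligation (edgeR, adjusted p = 0.00292) and fell by 1.67 with cells (edgeR, adjusted p = 0.000447), the only one of these 9 called between cells and ligation, where 4.19% of all genes were higher and 5.69% lower.

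The alternative pathway amplifies C3 cleavage through factor B, factor D and properdin. Cfd, which encodes factor D and is also called adipsin for its abundance in fat, was at 7.63, 7.07 and 8.55 CPM in sham hearts, at 149, 144 and 147 CPM after ligation and at 136, 151 and 140.4 CPM with cells. The sham libraries stood far below, and the ligation and cell libraries overlapped. The rise was 18.8-fold (log2 4.23, SE 0.0877; edgeR, adjusted p = 1.8e-18), the largest among the complement genes tested. Of the adipocyte genes given above, Adipoq, Plin1, Cidec, Retn and Lep had higher mean levels after ligation than in sham hearts and Fabp4, the most abundant and one that endothelial cells also express, a lower one, and the part of fat tissue in the level of Cfd was not tested. Between cells and ligation the difference for Cfd was -0.04, with a 95% interval from -0.16 to 0.09 (edgeR, adjusted p = 0.771). Cfp, the gene of properdin, which myeloid cells make, was at 17.9 ± 1.89, 25.5 ± 2.48 and 9.80 ± 2.48 CPM in the sham, ligation and cell groups (SD, n = 3). It rose after ligation by 0.51 (edgeR, adjusted p = 0.0082) and fell by 1.37 with cells (edgeR, adjusted p = 3.12e-06). Without sham replicate 3 its rise after ligation had an adjusted p of 0.0504. Cfb, the gene of factor B, had 7 counts over all 9 libraries and was not tested. Of its exon bases, 79.5% lie under Gm20547, so its reads may be misassigned and its low count may not show its level.

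Of the terminal genes, Hc, which encodes C5, had 6 counts over all 9 libraries, below any level that could be compared. Among 3 terminal genes tested, 2 were higher after ligation, where 20.1% of all genes were, and 1 was not past the threshold. C6, 1 of the 2, had 12, 44 and 27 counts in all in the sham, ligation and cell groups. C7, singled out after its values were seen, was at 34.8, 113 and 84.6 CPM on average in the sham, ligation and cell groups. It was the only terminal gene of the 3 tested called lower with cells than after ligation (-0.42, edgeR, adjusted p = 0.000154), where 5.69% of all genes were.

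Of the soluble regulators, Clu, encoding clusterin, which keeps terminal complexes from inserting into membranes, was at 687, 699.5 and 669.8 CPM in sham hearts, at 977, 964 and 1004 CPM after ligation and at 1132, 1153 and 1136 CPM with cells. The cell libraries were the highest and the sham libraries the lowest, with no overlap between groups. Clu rose by 0.52 after ligation (edgeR, adjusted p = 7.24e-10) and by a further 0.22 with cells against ligation (edgeR, adjusted p = 0.00051), a comparison in which C3, C4b and Serping1 fell. Cfi, encoding factor I, which degrades C3b and C4b, had 8, 142 and 102 counts in all in the sham, ligation and cell groups. Vtn, encoding vitronectin, fell by 0.89 after ligation (edgeR, adjusted p = 8.61e-07).

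Of 6 regulators on the cell membrane, 3 were lower after ligation, 1 higher and 2 not past the threshold, where 18.0% of all genes were lower and 20.1% higher. The higher gene, Csmd1, had 19, 44 and 48 counts in all in the sham, ligation and cell groups. None of the 6 was called between cells and ligation, where 4.19% of all genes were higher and 5.69% lower. Cd59a, which blocks the terminal complex, was at 126 ± 11.1, 100.5 ± 6.57 and 99.3 ± 3.08 CPM in the sham, ligation and cell groups (SD, n = 3; -0.33 after ligation; edgeR, adjusted p = 0.000791). With library totals in place of TMM scaling, its change after ligation was -0.14 and not past the threshold (edgeR, adjusted p = 0.0948). Cd46, a cofactor for factor I, was at 5.55, 2.87 and 1.83 CPM on average, a fall of 0.96 after ligation on the log2 scale (edgeR, adjusted p = 0.0126, and 0.0789 without sham replicate 3). Cd55, which takes C3-cleaving enzymes apart, had values of 27.5, 15.4 and 20.7 CPM in sham hearts that spanned the means of both other groups, 17.3 and 18.9 CPM (ligation against sham -0.30; edgeR, adjusted p = 0.186). Without sham replicate 2, the lowest of these, the difference was -0.48 and past the threshold (edgeR, adjusted p = 0.0241).

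Among the receptors, 5 of 8 were higher after ligation, where 20.1% of all genes were, and 4 of 8 were lower with cells than after ligation, where 5.69% were. Itgax, 1 of the 5, had 10, 43 and 28 counts in all in the sham, ligation and cell groups. Vsig4, a macrophage receptor for C3 fragments, was at 3.20, 4.27 and 2.22 CPM in sham hearts, at 7.65, 9.67 and 7.61 CPM after ligation and at 1.27, 4.01 and 1.87 CPM with cells. The ligation libraries were all above the others, and the sham and cell libraries overlapped. It rose by 1.37 (edgeR, adjusted p = 0.00168) and fell by 1.79 with cells (edgeR, adjusted p = 0.000739). C5ar1, the receptor for C5a, rose by 0.62 after ligation (edgeR, adjusted p = 0.000647) and fell by 1.12 with cells (edgeR, adjusted p = 6.36e-06). Against sham it fell by 0.49 with cells (edgeR, adjusted p = 0.00829), or with an adjusted p of 0.0626 with library totals. Itgb2 and Itgam, whose products form complement receptor 3 on myeloid cells, fell by 1.51 (edgeR, adjusted p = 6.43e-06) and 1.27 (edgeR, adjusted p = 0.000383) with cells, though 68.7% of Itgam's exon bases lie under Gm49368. C1qbp, a mitochondrial protein also named for binding C1q, fell by 0.49 after ligation (edgeR, adjusted p = 3.77e-06) and differed by -0.06 between cells and ligation (edgeR, adjusted p = 0.666).

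**Figure D4:**
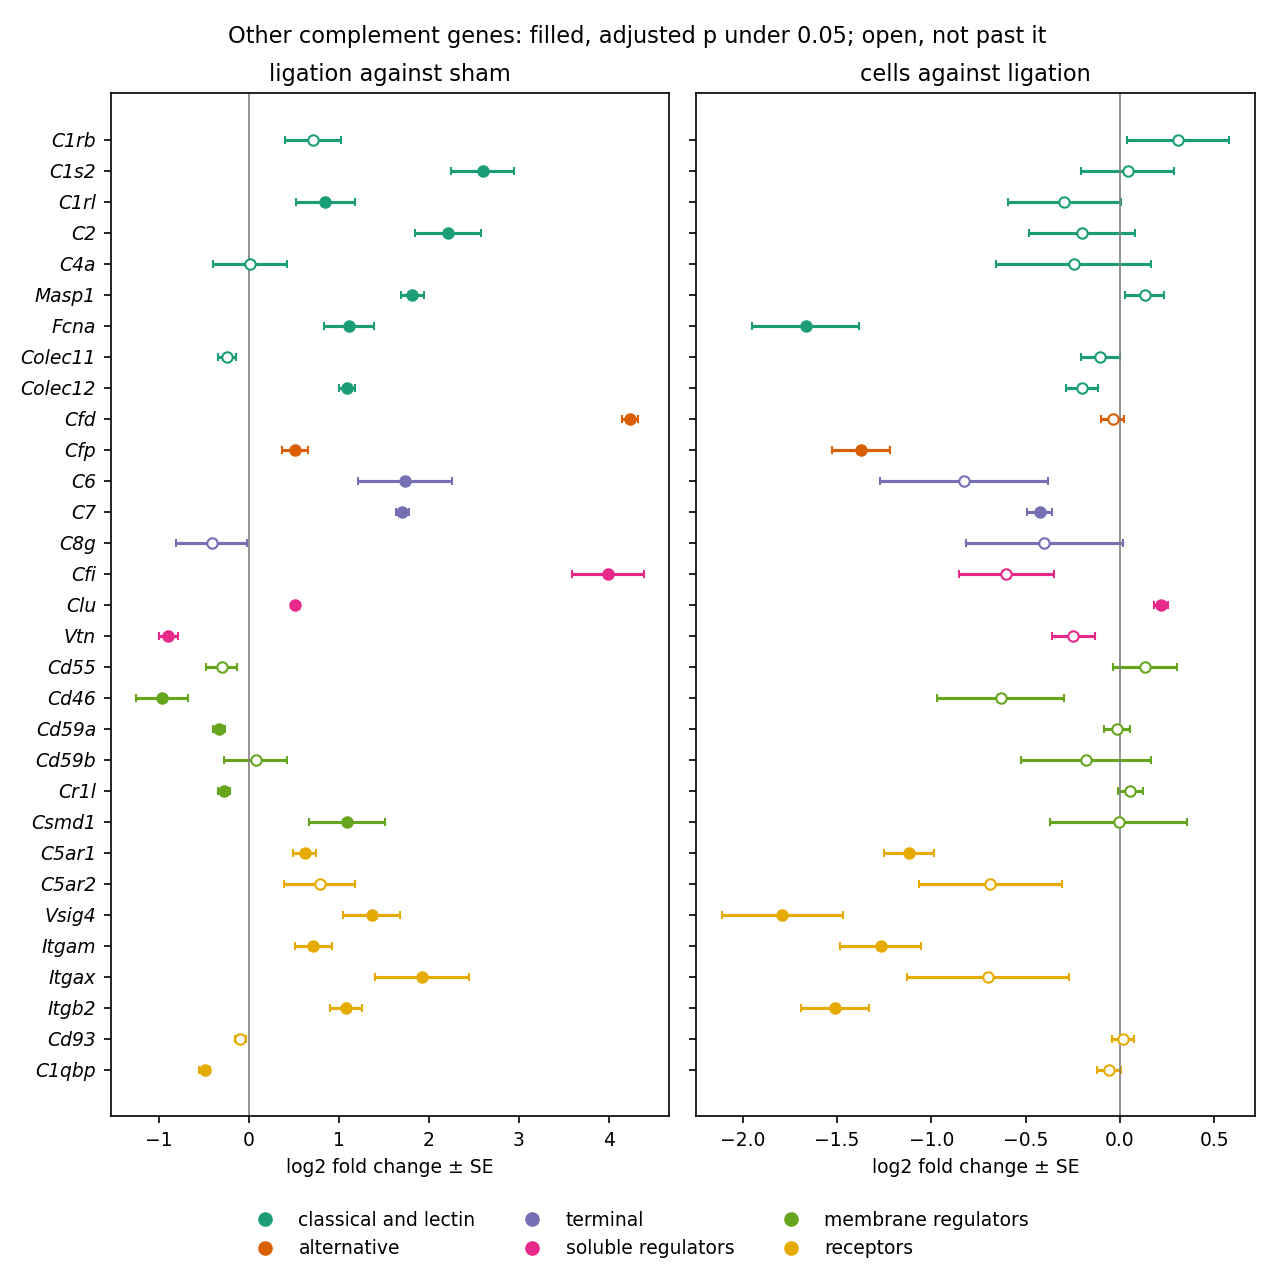
Log2 fold change ± SE (x axes) of the other complement genes reported here, coloured by role, for ligation against sham and cells against ligation. Filled points passed the adjusted p threshold and open points did not. The points of Cfi, C1s2, C2, C6, Itgax and Csmd1 on the left rest on few sham counts. Cfd has the largest rise after ligation, and Clu is a filled point above 0 for cells against ligation.

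Library totals ran from 4549268 to 7515052 counts over genes, so a limit of 3 counts stood at 0.374 to 0.638 CPM. Mitochondrially encoded genes took 19.1 to 19.9% of counts in sham hearts, 12.6 to 13.9% after ligation and 14.3% in each cell library. Cardiomyocyte markers, which define the labelled tissue, were abundant in every library, with sums of 27110 to 28450 CPM in sham hearts, 21860 to 23210 CPM after ligation and 20730 to 21620 CPM with cells. Of these 5 genes, 1 (Ryr2) was higher after ligation, 2 lower and 2 not past the threshold, where 20.1% of all genes were higher and 18.0% lower. Endothelial markers summed to 1709 to 1807, 1137 to 1210 and 1253 to 1285 CPM in the sham, ligation and cell groups. Neutrophil markers summed to 34.8 to 42.4, 12.3 to 18.2 and 5.40 to 5.94 CPM, but did not move alike after ligation. S100a8 was at 14.4, 3.68 and 1.93 CPM and S100a9 at 19.0, 4.95 and 2.02 CPM on average in the sham, ligation and cell groups. Csf3r was at 4.13, 6.33 and 1.61 CPM, and Ly6g and Mpo had 2 and 7 counts over all 9 libraries, with none in sham hearts. Hepatocyte markers, read because liver makes most plasma complement, stayed at or below 5.53 CPM, and the lymphocyte markers at or below 1.24 CPM, with Ms4a1 and Cd3d at 0 in all libraries.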

How the data were processed

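Each library has a deposited table of unnormalized read counts for every gene, on build mm10 per the submitters' processing notes. TRIzol extraction and the NEBNext Ultra RNA kit were used, per the labels' protocols. Aligner, counter, annotation release and strand setting are not given in the sources used here, so reads of overlapping or copied genes may be misassigned. Lines that name no gene stayed out of library sizes: ambiguous reads were 8.09 to 8.72% and reads with no feature 4.14 to 4.91% of each library. Symbols, coordinates and exon lengths came from GENCODE M21, which matched 53274 of 53465 IDs.

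All 9 libraries were fitted with edgeR 4.0.16 (R 4.3.3): filterByExpr, which kept 13825 genes, TMM factors, 1 mean per group, the quasi-likelihood test with 6 residual degrees of freedom, and Benjamini-Hochberg adjustment over all genes tested, with a threshold of 0.05. All 9 members passed the filter. On data simulated from these libraries, 153 of 200 genes changed by 1 on the log2 scale were called, 76.5%. CPM values are TMM-scaled, and precision is limited by 3 libraries per group. Replicates were compared by chi-square over genes, and no pair agreed within sampling noise (mean 1.93 to 3.73 per gene).

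Members and lists were chosen with earlier results of these data known. Named genes were the members, 13 fixed complement genes, the 4 genes of the wider list with the largest change past the threshold in each direction with a mean of at least 1 CPM, and the 3 genes most alike each profile. Alternatives were library totals, DESeq2 1.42.0, other filters, the compared groups alone, removal of mitochondrial genes, a replicate block, each library left out and, chosen after seeing the file headers, summing of libraries that share a header stem. Some genes of these lists and rules are not reported here.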

Additional observations from a re-analysis of the deposited data

How the results depend on the processing

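All 9 members kept their direction and their side of the threshold in all 3 comparisons under all 18 alternatives. For C3 between cells and ligation the log2 fold change ran from -0.245 to -0.173 (largest adjusted p 0.0341, over the edgeR and DESeq2 fits), and for C3ar1 between cells and sham from -0.776 to -0.47 (largest adjusted p 0.0316). With library totals alone, all genes shifted by 0.189 on the log2 scale after ligation and by 0.158 with cells against sham, the share of calls that were higher was 78.7% after ligation, 32.0% between cells and ligation and 73.1% between cells and sham, in place of 52.7%, 42.4% and 51.2%, and the wider list had 3 lower genes after ligation in place of 5 and 5 with cells against sham in place of 8. For pairing by replicate number, the deviations of log2 CPM from the group mean were correlated over genes between same-numbered libraries. They correlated at -0.123 to 0.132, with no consistent sign, which shows no clear pairing but cannot exclude it. With the replicate block 9 members were still higher after ligation and 5134 genes were called in place of 5277. Sham replicates 1 and 2 and ligation replicates 2 and 3 have file headers with a shared stem, and summing each pair left every member's call unchanged.

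The log2 ratio of C1q to macrophage markers between cells and ligation ran from -0.0611 to 0.000735 as each library was left out. Small differences of uncalled genes changed sign. C4a after ligation was -0.00315 in the fit on the compared groups alone, -0.00379 without mitochondrial genes, -0.0462 with summed libraries and -0.267 to 0.249 as libraries were left out, and between cells and sham -0.514 to 0.0028. C1s2 between cells and ligation was -0.0108 with summed libraries and -0.0743 to 0.229 as libraries were left out. Cd55 ran from -0.0225 to 0.227 against ligation and from -0.351 to 0.0562 against sham, and Cd59a from -0.0693 to 0.0151 against ligation. The cause was not tested. With 57 to 219 counts per library, C3ar1 is the member whose precision depth limits most. Hc, Cfb and the other 14 untested genes had too few counts to be compared, and for Cfb the overlap with Gm20547 may limit the counts as well as depth.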
